A study of Mus musculus with 5 samples.

Results

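The cells described here are epithelial tumor cells that carried high levels of Scgb2b27, Aqp5, Col9a1, Car12 and Etv1 in mammary tumors of MMTV-PyMT mice. A cell was counted as epithelial when it held at least 2500 gene UMIs (unique molecular identifiers, each standing for 1 captured transcript) and stayed under a fixed upper limit, with at most 20% mitochondrial UMIs, at least 5 UMIs of Epcam, Krt8 and Krt18 together and no UMI of the leukocyte gene Ptprc. Each epithelial cell was scored by the mean of ln(1 + UMI per 10000) over the 5 genes, and the top 10% over all tumors were taken. This gave 1341 cells among 13412 epithelial cells, 19533 cells that passed the filters on UMIs and mitochondrial share, and 30340 deposited cells. They are called high-scoring cells below, and the remaining 12071 epithelial cells are called other epithelial cells. No single gene separated them: 86.6% of high-scoring cells and 29.7% of other epithelial cells held a UMI of Scgb2b27.

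In MMTV-PyMT mice a viral promoter active in mammary epithelium drives the polyoma middle T oncogene, and the mice develop mammary carcinomas. Animals of this strain, on the FVB background, received isotype IgG2a (clone C1.18.4) or B20-4.1.1, an antibody that neutralizes VEGF-A. Both were given at 5 mg/kg, 2 doses per week for 6 weeks, from 7 weeks of age. Viable (DAPI-) cells of each tumor were sorted, tagged with multiplexing oligonucleotides and run as pools of 3 tumors, which gave 6 isotype tumors in 2 pools and 9 B20-4.1.1 tumors in 3 pools. Every pool held tumors of 1 treatment, so pool and treatment cannot be told apart in any comparison of treatments below.

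Secretoglobins are small secreted proteins of glandular epithelia. Scgb2b27 encodes a beta-type and Scgb1b27 an alpha-type subunit of the mouse androgen-binding proteins, which pair into dimers and are found in saliva and tears. Aqp5 is the water channel of the apical membrane of salivary, lacrimal and sweat gland cells. Car12 is a membrane-bound carbonic anhydrase, Col9a1 a chain of collagen IX of cartilage, and Etv1 an ETS transcription factor that acts below receptor tyrosine kinases and ERK.

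Scgb2b27 (GRCm38 chr7:34011921-34013942, minus strand) and Scgb1b27 lie next to each other in a cluster of related genes, with 7540 bases between them. The start regions of both are shown because these are the leading marker and the secretoglobin that differed most. Both were taken from RefSeq for GRCm38.p6, from 250 bases before to 50 bases after the annotated start, at chr7:34013893-34014192 (minus strand) for Scgb2b27 and chr7:34021231-34021530 (plus strand) for Scgb1b27. Capitals mark the letters TATAAA on either strand.
Scgb2b27: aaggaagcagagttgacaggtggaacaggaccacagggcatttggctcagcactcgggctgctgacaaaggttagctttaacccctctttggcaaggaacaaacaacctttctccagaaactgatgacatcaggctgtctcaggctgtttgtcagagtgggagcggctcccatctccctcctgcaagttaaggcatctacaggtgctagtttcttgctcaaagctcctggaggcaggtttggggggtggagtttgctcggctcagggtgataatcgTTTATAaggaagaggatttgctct
Scgb1b27: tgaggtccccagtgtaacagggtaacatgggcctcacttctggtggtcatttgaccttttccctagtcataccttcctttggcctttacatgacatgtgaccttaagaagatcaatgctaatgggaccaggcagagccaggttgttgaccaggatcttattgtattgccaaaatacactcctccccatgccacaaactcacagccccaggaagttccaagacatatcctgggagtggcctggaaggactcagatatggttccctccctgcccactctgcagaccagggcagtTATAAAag
The motif began at base 277 of the first and base 293 of the second sequence. Both lie after the annotated start, within the last 50 bases of the window, and the match in Scgb2b27 is on the opposite strand. The same letters occurred on either strand in 13.6% of the 32851 start regions of the RefSeq table, and neither sequence held CATATG or CCGGAAG, which occurred in 3.91% and 8.86%.

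The 5 genes chose the cells, so their levels are a description. Over all high-scoring cells, Scgb2b27 stood at 34.2 UMI per 10000, Aqp5 at 17.1, Col9a1 at 5.32, Etv1 at 4.45 and Car12 at 2.93. In the other epithelial cells the same genes stood at 1.49, 3.58, 1.79, 1.12 and 0.53 UMI per 10000. All 5 genes had a UMI in 736 of the 1341 cells, 4 genes in 534, 3 genes in 65 and 2 genes in 6. The choice was a cut through a continuous range of scores and not a gap: the last cell inside scored 1.46604 and the first outside 1.46603. Within 0.1 of that value lay 272 cells inside and 356 outside. The 20 cells just inside had 5.00 UMI per 10000 of Scgb2b27 and 16.5 of Aqp5, and the 20 just outside had 12.2 and 13.5.

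Leukocyte comparison cells of the same tumors (2463 cells with a Ptprc UMI and none of Epcam, Krt8 or Krt18) gave a background level for each gene. A UMI of the 5 genes was present in 2.03% to 4.95% of these cells, at a median depth of 4391 UMIs. In high-scoring cells, with a median of 9322 UMIs, it was present in 81.7% (Car12) to 99.1% (Aqp5). When every cell was thinned to 2500 UMIs, the shares were 47.8% to 91.7% in high-scoring cells and 0.934% to 2.84% in leukocytes.

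Each gene was also left out in turn, the top 10% were chosen on the other 4, and the gene left out was compared within tumors. This is a description with no test, since the 5 genes were themselves chosen on these cells. Each of the 5 was higher in the chosen cells of every tumor with at least 20 such cells (11 to 13 tumors). The median ratio was 3.88 for Scgb2b27 and 3.28 for Car12. For Aqp5 it was 3.18, for Etv1 2.82, and Col9a1 had the lowest at 1.77. The choice depended most on Scgb2b27: without it, 70.8% of the same cells were chosen, against 83.1% to 86.4% without any other gene.

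High-scoring cells were deeper than their neighbors. Their median was 8037.5 to 15249 gene UMIs over the 13 tumors with at least 20 of them, and 7092 to 11563.5 in the other epithelial cells, with a mean difference of 1419.5 UMIs (SD 1323.83, higher in 11 of 13 tumors, exact sign-flip permutation test, adjusted p = 0.0024). The mitochondrial share was higher in 13 of 13 tumors, by 1.05 percentage points (SD 0.661, exact permutation test, adjusted p = 0.0012). The share of multiplexing UMIs that belonged to the tumor's own oligonucleotides was higher in 3 of 13, with a mean difference of -3.34 points (adjusted p = 0.0052 by the same exact test). When cells were thinned to 2500 UMIs before scoring, the depth difference was 625.5 UMIs (exact permutation p = 0.18). The mitochondrial share then differed by 1.21 points and the own multiplexing share by -3.47 points, both still past the threshold. The part of these measures in the results below was not tested beyond the thinned, depth-limited and multiplexing-limited choices of cells.

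High-scoring cells made up a smaller share of the epithelium in B20-4.1.1 tumors. In the 6 isotype tumors they were 7.15%, 13.8%, 14.3%, 14.9%, 17.5% and 18.7% of epithelial cells. In the 9 B20-4.1.1 tumors the lowest share was 2.00%, the median 4.72% and the highest 11.3%. The study sorted treated tumors by hypoxia, but the labels give no such class, so the B20-4.1.1 values here pool tumors whatever their class. The 2 groups overlapped through isotype tumor 6, at 7.15%, and through B20-4.1.1 tumors 3 and 4, and 7 of 9 B20-4.1.1 tumors lay below every isotype tumor. The mean share was 14.4% ± 4.03 (SD, n = 6) against 5.56% ± 2.85 (SD, n = 9), a difference of -8.84 points (exact two-sided permutation test over tumors, p = 0.0006). The highest B20-4.1.1 value rested on 9 of 80 epithelial cells, with an exact 95% binomial interval of 5.28% to 20.3%, which covers counting error only. With the 5 pools as units the difference was the same and p was 0.1, the smallest that 2 against 3 pools allow.

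**Figure D1:**
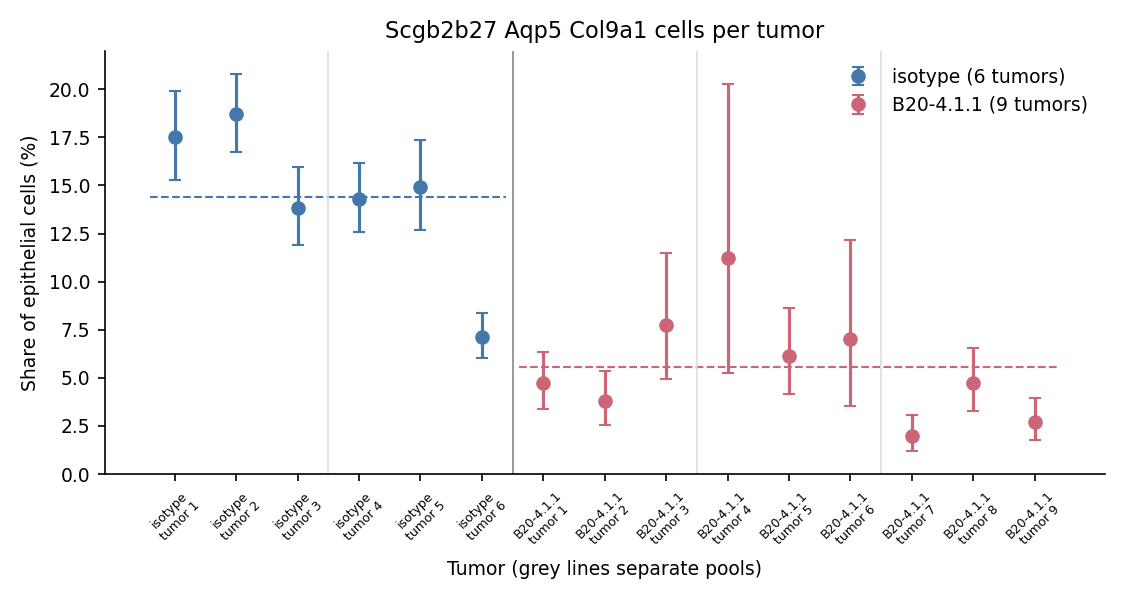
Share of Scgb2b27 Aqp5 Col9a1 cells among epithelial cells (y axis, percent) in each tumor (x axis). Points are tumors, bars are exact 95% binomial intervals, dashed lines are group means (14.4% and 5.56%), and grey lines separate the pools of 3 tumors; 7 of 9 B20-4.1.1 tumors lie below the lowest isotype tumor, at 7.15%.

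The score itself, averaged over all epithelial cells of a tumor and so free of the cut, did not overlap between treatments. The mean score rests on the same 5 genes, cells and tumors as the share, so it restates that difference and is no independent support. It was 0.694 to 0.886 in isotype and 0.426 to 0.665 in B20-4.1.1 tumors (exact two-sided permutation test, p = 0.0002, the smallest that 5005 splits give). This test took tumors as units. It was not run with the 5 pools as units, where 2 against 3 pools allow no permutation p under 0.1. Isotype tumors contributed 1120 and B20-4.1.1 tumors 221 of the high-scoring cells. B20-4.1.1 tumors 4 and 6 held 9 and 11 of them and entered no test of genes.

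Outside the 5 marker and 4 gate genes, 11951 genes could be compared between high-scoring cells and the other epithelial cells of the same 13 tumors (edgeR's quasi-likelihood test on summed counts with tumor as block, Benjamini-Hochberg adjusted p under 0.05). Of these, 34.8% passed, 2000 as higher (16.7%) and 2153 as lower (18%). Among genes that passed with an average log2 CPM of 4 or more, 364 were higher and 388 lower in all 13 tumors. These counts leave out predicted, mitochondrial and ribosomal protein genes. They stand without the number of all genes at that level, so they give no share. Levels below are UMI per 10000 in the summed cells of a tumor, and fold changes are on the log2 scale.

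Car6, the secreted carbonic anhydrase of saliva, ranged from 2.49 to 41.7 UMI per 10000 (median 4.96) in high-scoring cells and from 0.537 to 1.86 (median 0.685) in the other cells, so that the 2 ranges did not meet. Its log2 fold change was 2.96 (SE 0.147, edgeR adjusted p = 8.03e-17). The highest value, in B20-4.1.1 tumor 7, stood apart from the next, 10.9 in B20-4.1.1 tumor 5. Without Scgb2b27 in the score the log2 fold change of Car6 was 1.37. Cldn10, a claudin that forms ion pores in tight junctions, had a median of 0.947 against 0.166 UMI per 10000 (log2 fold change 2.67, SE 0.129). Bhlha15, the transcription factor MIST1 of exocrine secretory cells, had medians of 0.478 and 0.141 (log2 fold change 1.80, SE 0.0917). In B20-4.1.1 tumor 5 Bhlha15 was 0.0681 in high-scoring cells, close to 0.0657 in the other cells. Cpd, a carboxypeptidase of the trans-Golgi, was the most abundant of this group after Car6, at 2.76 to 7.26 against 0.969 to 1.87 UMI per 10000, again without overlap, and 86.1% of high-scoring cells carried a UMI of it against 51.5% of the other cells.

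The other genes named by the same rule rose by log2 fold changes of 1.47 (Sidt1) to 2.24 (Enho, which encodes the peptide adropin). Tesc and Ncald, both EF-hand calcium-binding proteins, rose by 2.02 and 1.90. Rap1gap, which switches off the GTPase Rap1, rose by 1.89, and Chn2, which does so for Rac, by 1.62. Slco2a1, the prostaglandin transporter, rose by 1.59, Tspan1 by 1.86, Hist1h4h by 1.55 and the scaffold of protein kinase A Akap12 by 1.53. Each of these was higher in 13 of 13 tumors, as the naming rule required. Chrm3, the muscarinic receptor through which salivary and lacrimal glands receive the signal to secrete, was looked at after its value was seen. Its median was 0.591 against 0.210 UMI per 10000 (log2 fold change 1.31, SE 0.0861, edgeR adjusted p = 8.07e-14), and it too was higher in 13 of 13 tumors.

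Of the 14 lower genes named by rule, the most abundant was Spp1, which encodes osteopontin, a secreted phosphoprotein of mammary epithelium and macrophages. It ranged from 4.22 to 37.9 UMI per 10000 (median 10.2) in high-scoring cells and from 56.7 to 176 (median 106) in the other epithelial cells. No high-scoring value reached the lowest value of the other cells, and the log2 fold change was -3.31 (SE 0.131, edgeR adjusted p = 3.61e-19). A UMI of Spp1 was still present in 65.8% of high-scoring cells, against 82.4% of the other cells. Ltf, the iron-binding milk protein lactoferrin, had medians of 2.08 and 17.0 UMI per 10000 with no overlap (log2 fold change -3.24, SE 0.160). Slpi, an inhibitor of leukocyte proteases, had medians of 0.0990 and 2.26, also without overlap (log2 fold change -4.11, SE 0.158). The caseins Csn1s1 and Csn2 were lower in 13 of 13 tumors, as the naming rule required. Their medians were 0.322 against 2.91 and 0.0925 against 3.38. Their ranges overlapped, with lowest values of 0.150 and 0.0622 in the other cells.

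**Figure D2:**
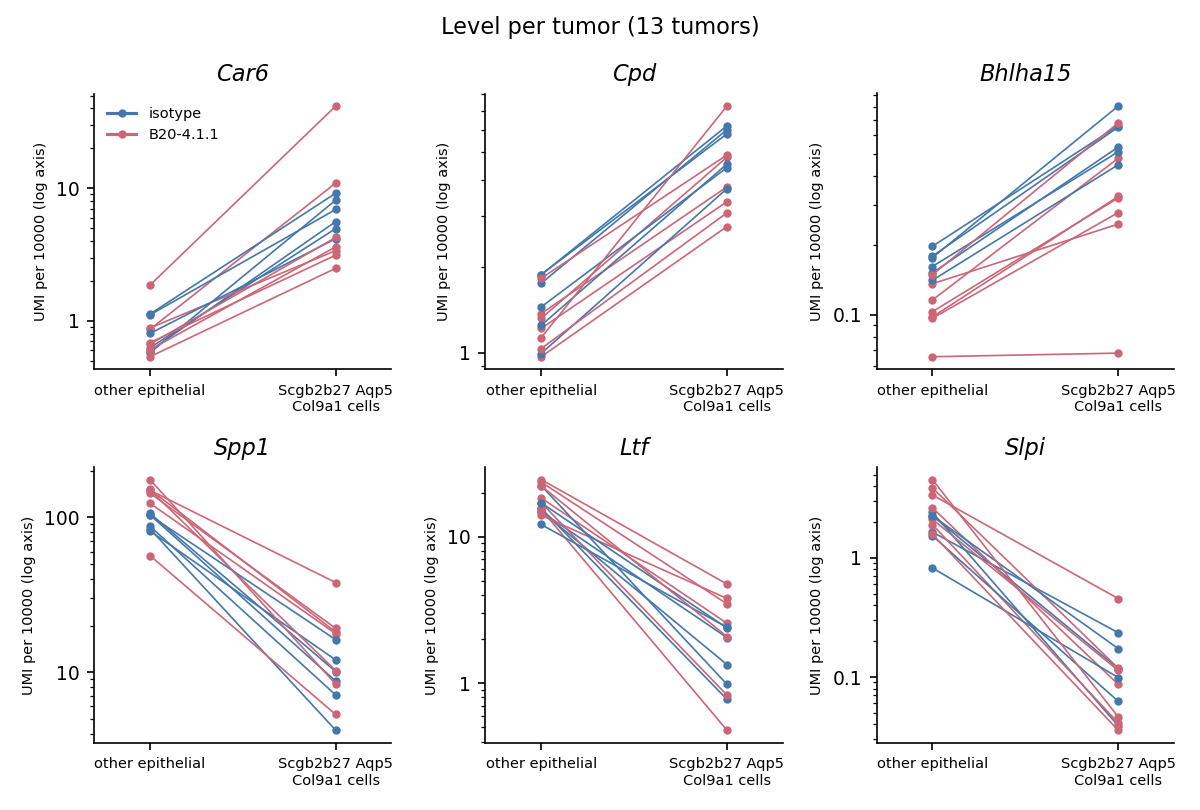
Level (y axis, UMI per 10000, log axis) of 6 genes in other epithelial cells and in Scgb2b27 Aqp5 Col9a1 cells, with a line for each of 13 tumors colored by treatment. Car6, Cpd and Bhlha15 go up and Spp1, Ltf and Slpi go down in every tumor, as the naming rule required. The Bhlha15 line that stays nearly flat is B20-4.1.1 tumor 5 (0.0681 against 0.0657).

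Krt14, a keratin of basal cells, held 42 UMIs over all high-scoring cells and 7335 over the other cells (log2 fold change -4.06, SE 0.194). These counts stand beside 13564173 gene UMIs in all in high-scoring cells and 117381180 in the other cells, so their plain ratio overstates the difference. Krt17 held 8 against 2727 UMIs (log2 fold change -4.48) and the kallikrein Klk10 held 6 against 2974 (-5.76). Sprr1a, a protein of the cornified envelope, gave 1 UMI against 3088, a ratio of 0.0028 (exact 95% counting interval 7.09e-05 to 0.0156), but its UMIs in the other cells came from 66 cells. Ctgf, a matricellular protein, held 12 against 3404 UMIs (log2 fold change -4.56) and the EGF receptor ligand Areg 10 against 1946 (-4.23). The retinaldehyde dehydrogenase Aldh1a3 held 28 against 5486 (-4.46), haptoglobin (Hp) 15 against 3822 (-4.39) and Wfdc12 52 against 7027 (-3.85). The naming rule required each to be lower in all 13 tumors. High-scoring cells held no UMI of Sprr1a in 12 of these tumors, of Klk10 in 10, and of Krt17 and Areg in 8 each.

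Epithelial cells were also ordered by score and divided into 10 equal groups, the deciles, of which the first is nearly the same as the high-scoring cells. This is a description, since the score made the groups and cells were pooled over tumors. Isotype tumors gave 1120 and B20-4.1.1 tumors 221 of the high-scoring cells, against 6981 and 5090 of the other epithelial cells. Differences between tumors and treatments are therefore mixed into the deciles. Most of the genes plotted changed by steps over the first 5 deciles. Spp1 was 11.3 UMI per 10000 in the first decile, 39.1 in the second, 112 in the fifth and 139 in the last. Car6 was 7.10 in the first decile, 2.19 in the second and 0.629 in the fifth. Cpd was 5.03, 2.89 and 1.3 in the same deciles, and Ltf 1.69, 3.69 and 15.2. The caseins had no such gradient: Csn1s1 was 0.583 in the first decile and 3.59 to 8.56 in the others, and Csn2 was 0.705 and 3.75 to 8.87.

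**Figure D3:**
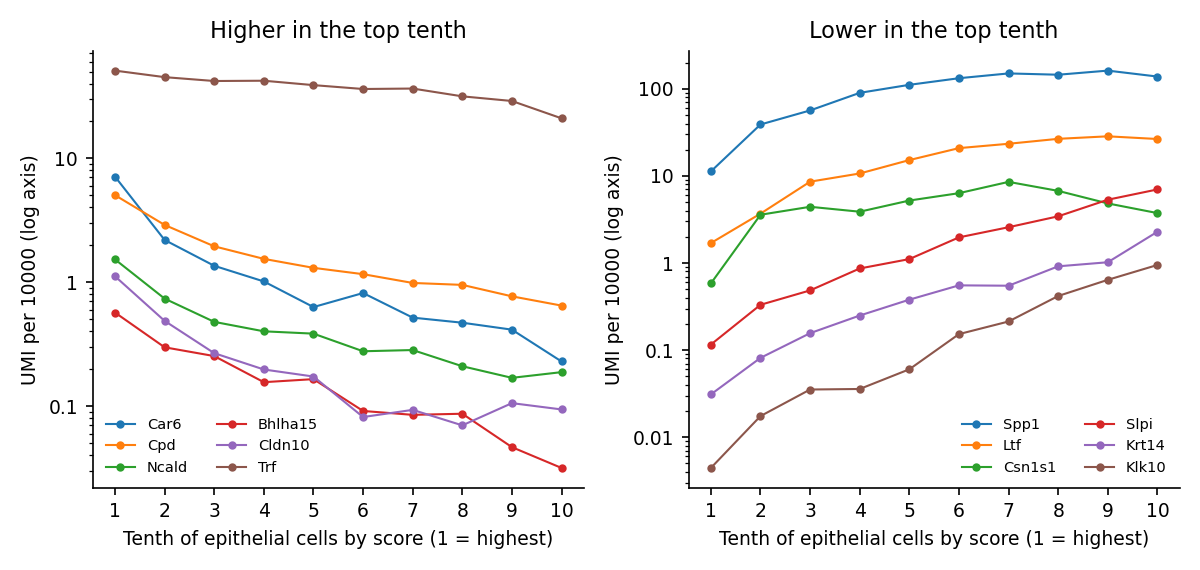
Level (y axis, UMI per 10000, log axis) of genes higher (left) and lower (right) in the first decile, over deciles of the epithelial cells ordered by score (x axis, 1 = highest, pooled over tumors). Most curves change gradually from the first decile to the last, as Spp1 does from 11.3 to 139; Csn1s1 is low in the first decile and at 3.59 to 8.56 in all others.

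Gene lists were described by their counts and medians, and genes of a list beyond its 4 largest differences were named after their values were seen. The median log2 fold change over all genes tested was -0.01, and 16.7% were higher and 18% lower. Of 4 secretoglobins tested beside Scgb2b27, 3 were higher and 1 lower. Scgb1b27 ranged from 0 to 210 UMI per 10000 (median 3.11) against 0 to 0.879 (median 0.0268), and was higher in 10 of 13 tumors (log2 fold change 6.89, SE 0.497, edgeR adjusted p = 7.7e-13). Its UMIs lay mostly in few cells: 56 high-scoring cells, from 10 tumors, with at least 10 UMIs each held 99.3% of its UMIs. Scgb2b26, the neighboring beta-type gene, was higher by 6.52 (SE 0.238), and Scgb1c1 by 1.46 (SE 0.134). Reads of such close relatives can be assigned to the wrong copy, so the values of single family members are uncertain. Without Scgb2b27 in the score, Scgb1b27 differed by 0.22 (edgeR adjusted p = 0.68) and Scgb2b26 by 1.57. Scgb2a2 was lower by 2.17 on 2 UMIs in high-scoring cells, and changed sign in 5 of 14 other settings.

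Water and ion transport genes moved both ways. Of 21 tested, 9 were higher, 4 lower and 8 did not pass, with a median log2 fold change of 0.09. Beside Car6, the higher ones included the bicarbonate cotransporter Slc4a4 (1.71, SE 0.245), the chloride-loading cotransporter Slc12a2 (1.16, SE 0.0710) and the calcium-activated potassium channel Kcnn4 (1.11, SE 0.0548). Kcnn4 was 3.88 to 6.1 UMI per 10000 against 1.90 to 2.92, with no overlap, and a UMI was present in 90.8% of high-scoring cells. The calcium-activated chloride channel Ano1, named after its value was seen, rose by 0.93 (SE 0.0605). The 4 lower genes were Atp1b1, Scnn1b, Slc9a3r1 and Fxyd3, by 0.25 to 0.49 on the log2 scale.

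Cartilage-type matrix and Sox genes gave 6 higher and 1 lower of 11 tested (median 0.18). Col9a2, which encodes the partner chain of Col9a1 in collagen IX, had a median of 1.3 against 0.501 UMI per 10000 (log2 fold change 1.08, SE 0.0944). Col11a1 was at 2.67 against 1.27, the calcium-binding S100b at 0.347 against 0.120, and the transcription factor Sox5 rose by 0.76. Sox6 was lower, with -1.3. By contrast, none of 15 basement membrane and other matrix genes was higher and 13 were lower (median -0.92), led by Col4a2, Tnc, Sparc and Fn1.

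ETS factors and ERK feedback genes gave 8 higher and 4 lower of 19 (median 0.29). Etv5, the close relative of Etv1, rose by 0.94 (SE 0.0794), and Phlda1, named after its value was seen and an immediate response gene of growth factor signaling, was at 8.98 to 12.8 against 6.18 to 8.22 UMI per 10000 without overlap. The growth factor receptor Fgfr2 was lower by 2.19, on 18 UMIs, the epithelial ETS factor Elf3 by 0.90 and Ets2 by 0.69. Lipid and cholesterol synthesis genes gave 11 higher and 2 lower of 18 (median 0.27), led by the sterol sensor partner Insig1 (1.18), the master regulator Srebf1 (0.88), the desaturase Scd2 (0.76) and the elongase Elovl6 (0.70).

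Milk and alveolar secretion genes were 11 of 16 lower and 2 higher (median -1.04). The 2 higher were Trf (transferrin, median 47.2 against 35.9 UMI per 10000) and Csn3 (kappa-casein, 206 against 174, log2 fold change 0.20), the latter not past the threshold when Scgb2b27 or Aqp5 was left out of the score. Glycam1 was lower by 5.88, on 9 UMIs in high-scoring cells, and DESeq2 did not call it. Mfge8, a protein of milk fat globules, was lower by 2.54 at 1.90 against 11.6 UMI per 10000. Innate defense secretions were 12 of 17 lower and 3 higher (median -0.98). Pip, the prolactin-induced protein of salivary and lacrimal glands, went the other way, by 5.24 (SE 0.413), with 27 high-scoring cells holding 96.9% of its UMIs. Pip was higher in 9 of 13 tumors. Its difference was 2.21 without Scgb2b27 in the score and 3.87 without the first isotype pool.

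Markers of other mammary epithelial states were mostly lower. Hormone-sensing luminal genes were 8 of 10 lower and 0 higher (median -2.48), among them Areg, Fxyd2, Cited1 and Ly6a. Basal and myoepithelial genes were 6 of 7 lower (median -2.52), with Mylk higher by 1.32. Squamous envelope genes were 8 of 11 lower and 2 higher (median -4.24), and Klk7 had 0 UMIs in high-scoring cells and 692 in 18 other cells. Against a floor of 3 counts over all high-scoring cells this is 26.7-fold lower. That value takes UMIs as independent, while they came from few cells, so it is no lower limit. DESeq2 did not call Klk7. Luminal keratins and junction genes were 10 of 13 lower and 3 higher (median -0.60): Krt19 fell by 2.87, Cldn4 by 2.08 and Krt7 by 1.84, while Cldn10 rose. Luminal progenitor genes were 7 of 11 lower and 3 higher (median -0.48), with Aldh1a3 lower by 4.46 and Cd14 by 1.59, and with Tspan8 higher by 1.3 and the Notch target Hey1 by 0.96.

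**Figure D4:**
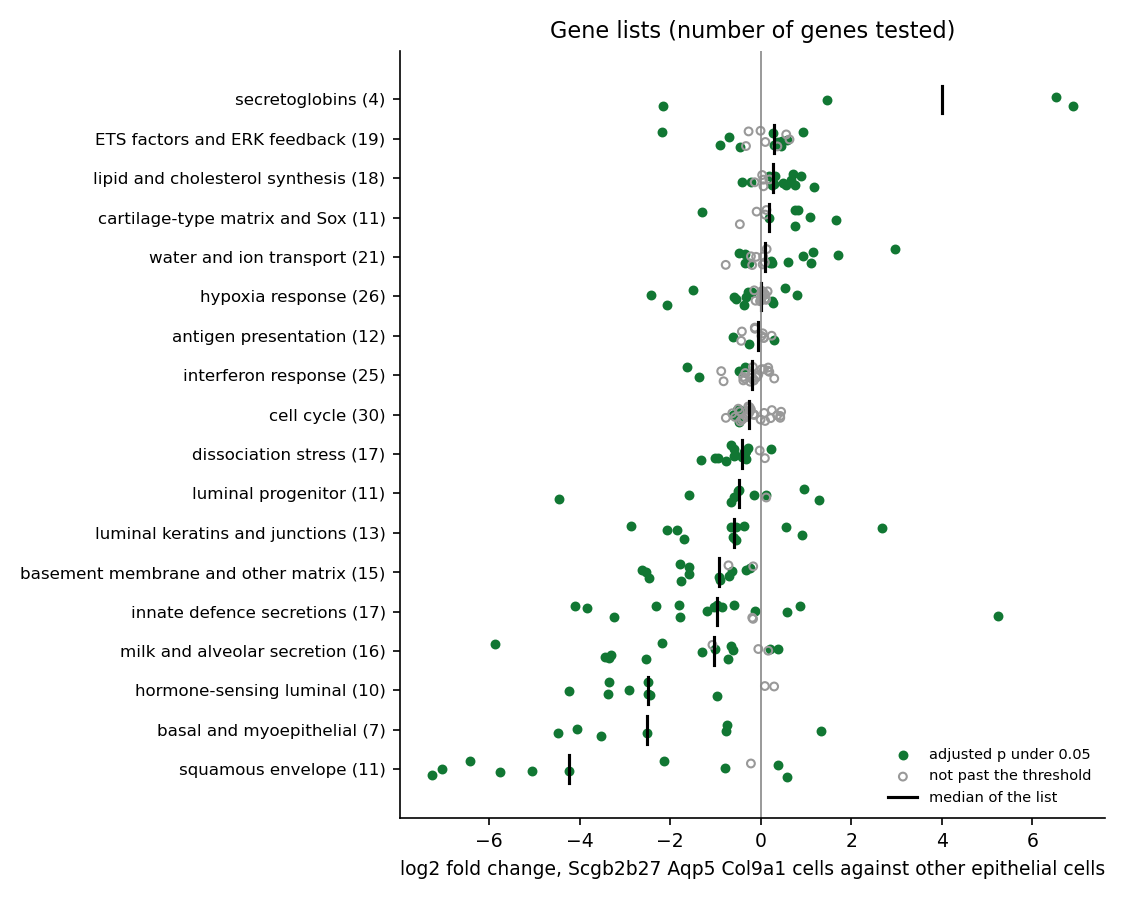
log2 fold change (x axis) of every tested gene of 18 gene lists (y axis, number of genes tested in brackets) between Scgb2b27 Aqp5 Col9a1 cells and other epithelial cells of the same tumors. Filled points passed an adjusted p of 0.05, open points did not, and black bars are list medians, which run from -4.24 (squamous envelope) to 3.99 (secretoglobins).

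Hypoxia response genes gave 4 higher and 9 lower of 26 (median 0.01), with P4ha2 lower by 2.43, Ndrg1 by 2.06 and Pfkfb3 by 1.51, and the glycolytic enzyme Aldoa higher by 0.80. Vegfa, the target of the antibody and named after its value was seen, was lower by 0.37. Cell cycle genes gave 0 higher and 4 lower of 30 (median -0.25), and Mki67 and Top2a did not pass. Bub1 (-0.77) did not pass in 17 of 19 other settings, Birc5 (-0.57) in 12 of 21, Tpx2 (-0.63) in 10 of 21 and Cenpa (-0.62) in 6 of 21. Interferon response genes gave 0 higher and 4 lower of 25 (median -0.19), and the largest difference, Ifit3 (-1.63), had an adjusted p of 0.084 by edgeR when isotype tumors 1 to 3 were left out and changed sign in 3 of 21 other settings. Antigen presentation genes gave 1 higher and 2 lower of 12. Dissociation stress genes were 14 of 17 lower and 1 higher (median -0.42), led by Hspb1, Dusp1, Hspa1a and Hspa1b; their part in the other differences was not tested.

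Markers of other cell types were low in both kinds of cell. The summed level of 11 myeloid markers was 0.394 to 2.06 UMI per 10000 in high-scoring cells and 1.02 to 4.25 in the other cells, lower in 13 of 13 tumors. T and B cell markers (10 genes) summed to 0.0327 to 1.57 against 0.0657 to 0.276, higher in 3 of 13 tumors, and fibroblast and mural markers (8 genes) to 0 to 0.139 against 0.028 to 1.51. Endothelial markers (6 genes) summed to 0 to 0.0824 against 0.0119 to 0.0733, with Emcn at 0 in high-scoring cells. Glial and melanocyte markers (6 genes) summed to 0.107 to 0.324 against 0.183 to 0.325, with Dct at 0.

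The treatments were then compared within the high-scoring cells, over 6 isotype and 7 B20-4.1.1 tumors. Of 5611 genes tested, 0.642% passed, 28 as higher (0.499%) and 8 as lower (0.143%) in B20-4.1.1 tumors, by edgeR's quasi-likelihood test, and 877 had an unadjusted p under 0.05. No call passed when pool was taken as a random block (limma voom, 405 genes with an unadjusted p under 0.05), where the correlation of tumors within a pool was 0.386. Leaving out single pools gave 3 to 710 higher and 1 to 581 lower genes, with 4 calls in all without the third B20-4.1.1 pool, 8 without the first isotype pool and 1291 without the second. Of the 8 lower genes, 2 were mitochondrial, mt-Co3 (log2 fold change -0.97) and mt-Cytb (-0.47). The median mitochondrial share of high-scoring cells was 3.67% to 7.82% over 6 isotype tumors and 2.75% to 5.90% over 9 B20-4.1.1 tumors. Median UMIs per deposited cell were 2321 and 6475.5 in the isotype pools and 4120.5 to 7129 in the B20-4.1.1 pools. The part of these measures in the calls was not tested.

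Among the lower genes was Csn1s1, at 0.269 to 1.49 UMI per 10000 (median 0.717) in isotype and 0 to 0.324 (median 0.0803) in B20-4.1.1 tumors (log2 fold change -2.42, SE 0.508, edgeR adjusted p = 0.031). Pinc, a pregnancy-induced noncoding RNA of the mammary gland, was 0.307 to 0.630 against 0 to 0.295, without overlap (log2 fold change -1.87, SE 0.381, adjusted p = 0.029). Socs2, a feedback inhibitor of growth hormone and prolactin signaling, was 1.26 to 2.04 against 0.358 to 1.28 (log2 fold change -0.89). The heat shock gene Hspa1a fell by 1.13 and Palmd by 0.62 on the log2 scale. In the other epithelial cells of the same tumors Csn1s1 was 3.29 to 12.8 in isotype and 0.150 to 2.91 in B20-4.1.1 tumors, and Pinc 0.595 to 0.823 and 0.0780 to 0.302.

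Among the higher genes, Galk1, the galactokinase of galactose use, was 0.275 to 0.467 UMI per 10000 in isotype and 0.647 to 1.10 in B20-4.1.1 tumors, without overlap (log2 fold change 1.2, SE 0.169, edgeR adjusted p = 0.0018). Prr15l was 0.196 to 0.234 against 0.282 to 0.680, also without overlap (log2 fold change 1.36, SE 0.189, adjusted p = 0.0018). The GTPase Rab34 (log2 fold change 1.08), the cold-inducible RNA-binding protein Cirbp (1.08) and the actin-binding Tagln2 (1.16) did not overlap either. Lgals9, a galectin, rose by 1.69, Xaf1, an interferon-induced gene, by 1.39 and Crip1 by 1.01, with overlap between the groups. In the other epithelial cells of the same tumors Galk1 was 0.442 to 0.497 in isotype and 0.573 to 0.822 in B20-4.1.1 tumors. Prr15l was 0.251 to 0.460 and 0.528 to 0.716 there. Rab34, Cirbp and Xaf1 did not overlap there either, while Tagln2, Lgals9 and Crip1 overlapped. Galk1, Prr15l, Rab34, Lgals9 and Xaf1 lie on chromosome 11.

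**Figure D5:**
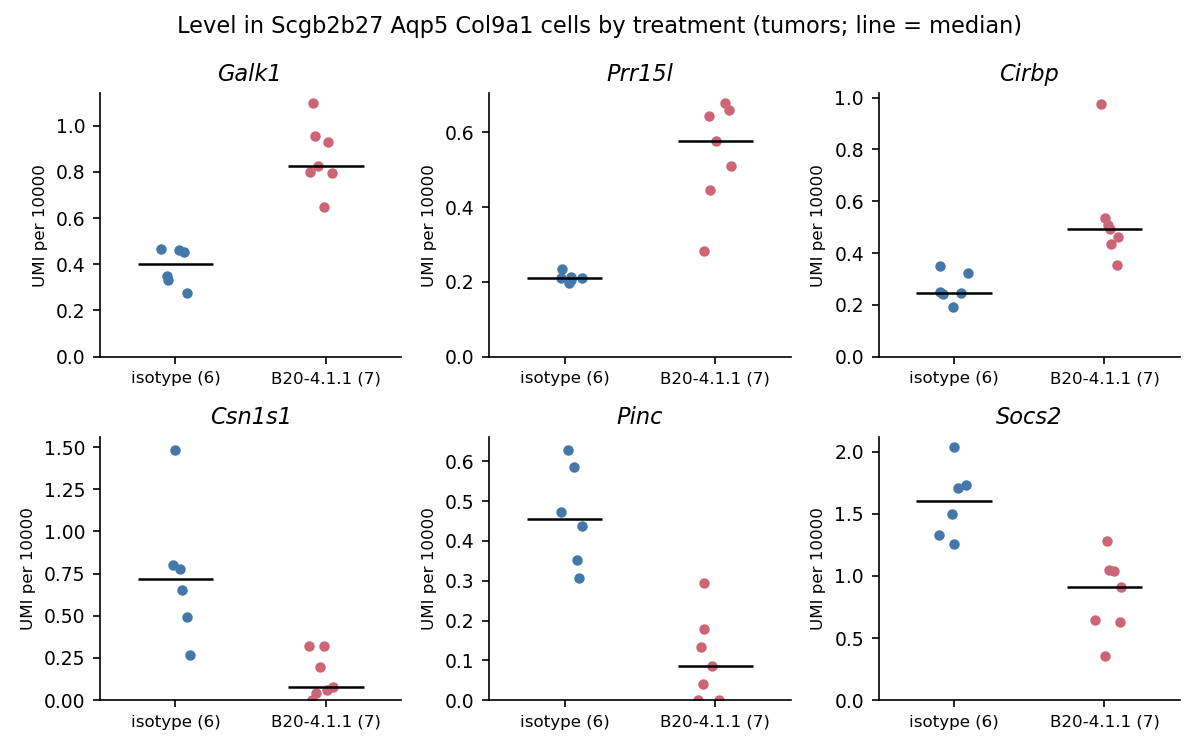
Level in Scgb2b27 Aqp5 Col9a1 cells (y axis, UMI per 10000) of 6 genes in 6 isotype and 7 B20-4.1.1 tumors; points are tumors and lines are medians. Galk1, Prr15l and Cirbp are higher and Pinc is lower in B20-4.1.1 tumors without overlap, and Csn1s1 and Socs2 are lower with overlap; none passed with pool as a random block.

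The lists are read beside 0.642% called over all genes tested, and none of their calls passed with pool as a random block. Of 25 interferon response genes, 12 could be tested, and 1 passed (Xaf1, on chromosome 11, whose tested genes had a median of 0.22). All 12 had a positive log2 fold change (median 0.78, against 0.01 over all genes tested), as did 2902 of all 5611 genes tested. The signs were not tested. Ifi27l2a differed by 2.01 (SE 0.493, edgeR adjusted p = 0.074), Isg15 by 1.22 (adjusted p = 0.19) and Irf7 by 1.09 (adjusted p = 0.19), none of which passed. Of 18 hypoxia response genes, 2 passed, the mitophagy receptor Bnip3 (0.95, SE 0.214) and the glycolytic enzyme Tpi1 (0.52, SE 0.109), and 16 had a positive log2 fold change (median 0.41). These 2 genes also did not overlap between treatments in the other epithelial cells. Bnip3 was 0.237 to 0.314 against 0.492 to 0.797 there, and Tpi1 2.29 to 2.90 against 3.70 to 4.26. Spp1 differed by 0.81 (SE 0.339) and did not pass (edgeR adjusted p = 0.26). None of 3 secretoglobins, 16 water and ion transport, 9 ETS and ERK feedback or 8 cartilage-type genes passed; Car6 differed by 0.70 (SE 0.541, adjusted p = 0.56) and Etv5 by -0.68 (adjusted p = 0.20).

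The treatment effect in high-scoring cells was compared with that in the other epithelial cells of the same tumors by an interaction term. Of 11951 genes, 4 passed (0.0335%), 1 as higher (0.00837%) and 3 as lower (0.0251%), with 795 at an unadjusted p under 0.05. None of 25 interferon response genes passed, with a median difference of log2 effects of 0.01, and 13 were positive. None of 26 hypoxia response genes passed (median -0.22, 5 positive). The median over all genes tested was -0.05. Nupr1, a stress-induced nuclear protein, was 2.31 to 4.34 UMI per 10000 in isotype and 4.17 to 7.98 in B20-4.1.1 tumors in the other epithelial cells, but 1.45 to 3.72 and 1.63 to 3.48 in high-scoring cells (difference of log2 effects -0.94, SE 0.127, edgeR adjusted p = 0.00036). Pigr, the receptor that carries immunoglobulins across epithelia, was 1.79 to 2.67 in isotype and 0.295 to 2.5 in B20-4.1.1 tumors in high-scoring cells, and 0.812 to 1.22 and 0.423 to 2.23 in the other cells (difference -0.88, SE 0.143, adjusted p = 0.0056). Ptn, the growth factor pleiotrophin, rested on 158 and 2 UMIs in the high-scoring cells of isotype and B20-4.1.1 tumors, against 2595 and 5555 in the other cells (difference -5.66, adjusted p = 0.033). In the other cells of B20-4.1.1 tumors Ptn was 6.32 UMI per 10000 in tumor 5 and 1.76 in tumor 1, but 0.00593 to 0.521 in the other 5, and it was 0 in the high-scoring cells of 7 of 13 tumors. The Ptn call was lost when isotype tumors 1 to 3 were left out, and when any 1 of the B20-4.1.1 pools was. Smr3a, a salivary gland gene named after its value was seen, rested on 14 and 88 UMIs in high-scoring cells and 20 and 5 in the other cells (difference 6.07, adjusted p = 0.033). Leaving out 1 isotype pool also ended the calls of the other 3 genes, the second pool for Nupr1, the first for Pigr and either for Smr3a, and Pigr was lost without the first B20-4.1.1 pool as well.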

How the data were processed

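Single-cell 3' gene expression and multiplexing libraries of 5 pools were analysed. The authors processed the reads with Cell Ranger (version 6.1.2 per the file headers), assigned droplets to tumors by oligonucleotides, and deposited raw UMI counts per gene and cell, 1 matrix for each of 15 tumors, on mm10 per the submitters' processing notes. Of 31053 genes, 31011 were located in GENCODE M21. Total counts were 4014509 to 23726246 gene UMIs per tumor. The deposited counts carry no normalization and were not corrected for free RNA.

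From these counts, cells were filtered and scored as described above, with Python 3.11.15, numpy 2.4.6, pandas 2.3.3 and scipy 1.17.1. No doublet caller was run, and upper UMI limits and the tumor's own multiplexing share were varied instead. No barcode was shared within a pool; 188 deposited cells shared one across pools, and 6 of the 1341 cells did. Counts were summed per tumor over high-scoring and over other epithelial cells, with at least 20 cells each. They were fitted in R 4.3.3 with edgeR 4.0.16 (TMM, filterByExpr, quasi-likelihood test, Benjamini-Hochberg over all genes). DESeq2 1.42.0 and limma 3.58.1 were alternatives. Standard errors are the fold change divided by the root of F. The replicate is the tumor; p-values measure the spread between tumors only.

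For high-scoring against other cells, naming required passing the test, 4 or more for the average log2 CPM, and 1 direction in all tumors. Up to 14 genes per direction were named. For treatment up to 8 were named, with pool means of the 2 treatments not overlapping in place of the tumor rule. The interaction allowed up to 5, without a rule on direction. In each list up to 4 genes were named by absolute fold change, whether they passed or not. Marker, gate, predicted, mitochondrial and ribosomal protein genes were passed over. The cells and lists were chosen with earlier results of these data known. On simulated counts with 200 changed genes among 11959, the fit of high-scoring against other cells recovered 75.7% of changes of 1 and 98.9% of changes of 2 on the log2 scale. For treatment, among 5619, it recovered 60.6% and 100%. For the interaction, among 11959, it recovered 8.41% and 55.9%. The simulated counts were drawn independently with 1 fixed dispersion and without tumor or pool effects, and the genes with the lowest counts were not changed. These rates therefore do not give the power in the real tumors, where pool and treatment cannot be told apart.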

Additional observations from a re-analysis of the deposited data

Results flagged for a closer look

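Isotype tumor 6 had a mean score of 0.694, apart from 0.831 to 0.886 in the other 5 isotype tumors. Its share of high-scoring cells, 7.15%, was also the lowest of its group. Over 86 groups of tumors examined for a value far from the rest, 8 such values were found, where chance gives about 1 in 20 groups.

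Of the log2 ratios of high-scoring to other epithelial cells, that of Krt17 was -0.19 in isotype tumor 1 (-3.11 to -2.35 in the other isotype tumors) and that of Krt14 was -1.50 in isotype tumor 5 (-4.65 to -3.82 in the others). Both rested on few UMIs in high-scoring cells and were computed with 0.01 added to each level. The ratio of Ncald was 2.11 in isotype tumor 6 (1.81 to 1.88 in the others), that of Sidt1 was 2.04 in isotype tumor 6 (1.22 to 1.53), that of Chn2 was 1.10 in isotype tumor 4 (1.5 to 1.68) and that of Cpd was 2.67 in B20-4.1.1 tumor 9 (1.42 to 1.86 in the other B20-4.1.1 tumors). Cirbp in high-scoring cells was 0.977 UMI per 10000 in B20-4.1.1 tumor 5 and 0.356 to 0.537 in the other B20-4.1.1 tumors.

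The treatment effect differed between high-scoring and other epithelial cells, by an interaction term, for 4 genes: Nupr1 (-0.94), Pigr (-0.88), Ptn (-5.66) and Smr3a (6.07, on the log2 scale). The Smr3a values rested mainly on B20-4.1.1 tumor 2, at 2.28 UMI per 10000, against 0 to 0.195 in the other B20-4.1.1 tumors.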

How the results depend on the processing

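The difference in the share of high-scoring cells kept its direction under all 33 alternatives, 15 of them, tumors left out in turn, chosen after seeing the data. It ran from -11.1 to -6.56 points without single pools or tumors and passed in all but the test with pools as units (-8.84 points, exact permutation p = 0.1). No paired analysis was possible because the labels give no replicate numbers that tie isotype to B20-4.1.1 tumors. The genes left out of the score in turn kept mean differences, without single pools, of 8.33 to 9.92 UMI per 10000 for Scgb2b27, 7.70 to 9.09 for Aqp5, 1.56 to 1.90 for Col9a1, 1.07 to 1.5 for Car12 and 2.07 to 2.31 for Etv1. Without single pools the number of multiplexing UMIs per cell differed by -389.6 to -244 and mostly no longer passed. With thinned scores, genes per cell differed by 140.875 and UMIs by 625.5, neither past the threshold. The mitochondrial share (1.21 points) and the own multiplexing share (-3.47 points) still passed with those scores.

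Between high-scoring and other cells, all 28 named genes kept their direction and passed under each of the alternatives run. The counts were 1282 to 1934 higher and 1523 to 2325 lower without single pools, 1282 being without the first isotype pool. The treatment counts within high-scoring cells, 28 higher and 8 lower, moved with nearly every choice: 62 and 17 with DESeq2, 73 and 83 without a filter, 116 and 49 with the top 20%, 15 higher with thinned scores, 10 and 4 up to 20000 UMIs, 2 and 1 with an own multiplexing share of at least 80%, 3 and 3 with sums per pool, 0 and 0 with the pool block, and 3 to 710 and 1 to 581 without single pools. The cause was not tested. No named treatment gene changed sign, and 86 values no longer passed while 116 did. Interaction counts (1 higher, 3 lower) were 0 higher with DESeq2, 24 and 40 without a filter, 9 lower with at least 10 cells, 0 and 0 with the top 20%, 0 and 1 up to 20000 UMIs, 0 and 8 with the multiplexing limit, 6 lower with a gate of 10 UMIs, and 0 to 2 and 3 to 12 without single pools. The top 5% left too few B20-4.1.1 tumors, and the treatment and interaction fits were not run.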

Other observations

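The genes that were higher in high-scoring cells of B20-4.1.1 tumors were unevenly spread over chromosomes, a pattern noticed in these data and given without a test. Of 28 such genes, 16 lie on chromosome 11, which holds 8.51% of the genes tested. They include Galk1, Prr15l, Rab34, Lgals9, Xaf1, Krt19, Mdh1, Atp5h and Rpl38. The median log2 fold change of the 478 genes tested on chromosome 11 was 0.22, against -0.04 to 0.04 for the other autosomes and X. For the 13 mitochondrial genes tested it was -0.59. In high-scoring cells chromosome 11 held 9.24% to 10.6% of nuclear gene UMIs in 6 isotype tumors and 10.6% to 17.0% in 7 B20-4.1.1 tumors, where the lowest lay just under the highest isotype value. The 17.0% was B20-4.1.1 tumor 7 alone (20 high-scoring cells, and 17.5% in its other epithelial cells), and the other 6 held 10.6% to 12.6%. In the other epithelial cells it held 10.2% to 11.8% in 6 isotype tumors and 11.9% to 17.5% in 9 B20-4.1.1 tumors, without overlap. In leukocyte comparison cells it held 7.88% to 8.70% and 8.17% to 9.01%, with overlap. Between high-scoring and other epithelial cells the median of chromosome 11 was -0.03, within the range of the other chromosomes (-0.04 to 0.08).

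At least 10 UMIs of Car6 were present in 160 of 1341 high-scoring cells and 221 of 12071 other epithelial cells, and of Scgb2b27 itself, which chose the cells, in 596 and 326. For Scgb1b27 these counts were 56 and 14, and for Pip 27 and 5, so that these 2 genes rested on small numbers of cells. The highest Scgb1b27 count in a single cell was 3205 UMIs.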
